A study of Macaca fascicularis with 64 samples.

Results

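The α-cells described here are the islet cells of cynomolgus monkeys in which glucagon was the dominant hormone transcript. A cell with more than 800 detected genes and more than 10000 unique molecular identifiers (UMIs, tags that count each captured transcript once) was taken as an α-cell when GCG was the highest of the 4 hormone genes GCG, INS, SST and PPY, reached at least 20000 counts per 1000000 UMIs of the cell (CPM) and was at least 2 times the second hormone. By this rule 4401 of 5908 retained cells (74.5%) were α-cells, out of 6141 picked cells. The same rule gave 1086 INS-dominant, 101 SST-dominant and 58 PPY-dominant cells, while in 238 cells the leading hormone was under 2 times the next and in 24 cells no hormone reached the minimum.

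The cells came from 16 healthy Macaca fascicularis, 8 young (4 to 6 years) and 8 old (18 to 21 years), 4 of each sex per age group, and with no treatment or genetic change in any group. The study asked how islet cell types differ and how they change with age. Islets were isolated from the tail of the pancreas with collagenase and picked by hand. Their dissociated cells were cleared of debris by sorting, picked singly and sequenced by a modified single-cell tagged reverse transcription protocol in 64 libraries, 4 per monkey. Tissue was taken over 16 days in sequence, so that monkey and day cannot be told apart.

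α-cells release glucagon when blood glucose falls, and glucagon drives glucose release from the liver. The hormone is cut from proglucagon, mainly by the convertase PCSK2, while PCSK1 releases other peptides from the same precursor. Amino acids in the blood stimulate both the secretion and the number of α-cells.

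The median α-cell held 64894 UMIs and 4401 detected genes, the medians per monkey lay between 39329 and 89500 UMIs (young male 3 had the fewest genes, 2779), and the α-cells of a monkey summed to between 12249078 and 26709642 UMIs. In the same monkeys, α-cells held more UMIs than SST-dominant cells (mean log2 ratio of medians 0.50 ± 0.38, SD, n = 11, exact permutation p = 0.00293, adjusted p = 0.00879, higher in 10 of 11 monkeys). The ratio to INS-dominant cells was -0.11 ± 0.33 (SD, n = 16, exact permutation p = 0.208, adjusted p = 0.312), and that to PPY-dominant cells was 0.38 ± 0.33 (SD, n = 5, exact permutation p = 0.125), where 5 monkeys cannot give a p under 0.0625. The genes per cell differed in the same way from SST-dominant cells (log2 ratio 0.39, exact permutation p = 0.00195, n = 11, adjusted p = 0.00879). All 96 cell barcodes recurred in 63 or 64 libraries, as the protocol uses one barcode set, and 0 cell names were repeated.

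Every monkey and all 64 libraries contributed α-cells. The number per monkey ran from 165 (old female 1) to 359 (young female 2), and per library from 31 to 94. As a share of retained cells they made up from 46.3% to 94.7% of a monkey's cells, with a median of 76.5%. The share was 76.5% ± 11.3 in young and 72.2% ± 17.0 in old monkeys (SD, n = 8 each), a difference of -4.21 percentage points that was smaller than the spread between monkeys (two-sided exact permutation p = 0.568). Picking by hand can set such shares, and its part was not tested.

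The hormone levels chose these cells and are given as a description. Over cells, GCG made up 2.0% to 42.2% of a cell's UMIs, with a median of 8.34%. Averaged over the α-cells of each monkey, GCG stood at 93372 CPM ± 13661 (SD, n = 16), from 76756 CPM in young male 4 to 126239 CPM in young male 3. Young monkeys had 95021 CPM ± 16295 and old monkeys 91723 CPM ± 11320 (SD, n = 8 each), so that the age groups overlapped. INS, the insulin gene, stood at 7735 CPM ± 4364, from 1702 CPM in young female 2 to 16550 CPM in old female 1. SST, which encodes somatostatin, stood at 666 CPM ± 562, and PPY, which encodes pancreatic polypeptide, at 963 CPM ± 1181 with the widest relative range, from 40.1 CPM in young male 3 to 4580 CPM in old female 2.

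**Figure D1:**
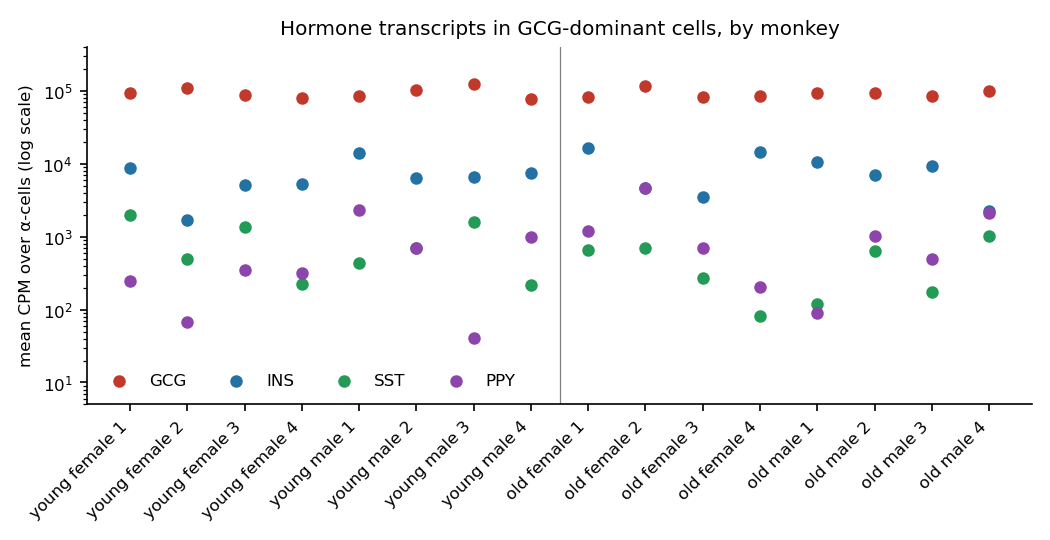
Mean level of the 4 hormone transcripts over the α-cells of each monkey (one column of points per monkey, CPM on a log scale). GCG lay between 76756 and 126239 CPM in all 16 monkeys and INS between 1702 and 16550 CPM, whereas PPY ran from 40.1 to 4580 CPM.

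GCG was 14.7 times the second hormone in the median α-cell (quartiles 8.30 and 30.5), and 2979 cells (67.7%) had a ratio of 10 or more. The second hormone was INS in 4001 cells (90.9%), PPY in 323 and SST in 77. No α-cell was free of the other hormones, since INS had a UMI in 100% of them, SST in 81.8% and PPY in 85.7%. These transcripts were low beside their level in their own class. In the median monkey, INS in α-cells was 9.26% of its level in INS-dominant cells, SST 0.72% of that in SST-dominant cells and PPY 1.43% of that in PPY-dominant cells. GCG in turn reached 23988 CPM in INS-dominant, 26530 CPM in SST-dominant and 31001 CPM in PPY-dominant cells, and in INS-dominant cells this was 24.4% of the α-cell level. The share of such transcripts that was carried over between cells was not tested. At the edges of the rule, the cells just inside and just outside had ratios of 2.006 and 1.989, and GCG levels of 20027 and 19718 CPM. Only 86 α-cells had a ratio under 3, and 85 GCG-led cells failed the ratio and 17 the minimum.

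The label was then checked against the other 6 markers given for α-cells, IRX2, TSPAN12, ARRDC4, GC, FEV and TTR, none of which the rule used. All 6 had a UMI in 67.7% of α-cells, against 27.8% of INS-dominant, 10.9% of SST-dominant and 48.3% of PPY-dominant cells. With each cell thinned to 10000 UMIs, these shares were 25.7%, 0.276%, 0% and 5.17%. Where the count was 0, the 101 SST-dominant cells allow a share with UMIs of all 6 of up to 2.97%, for counting error only. The class therefore carried the markers of its label. Several of these markers were named by the study on these same libraries, so their direction is not independent evidence.

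Differences were tested on UMI counts summed per monkey and class, with monkey as a block, by edgeR's quasi-likelihood test with Benjamini-Hochberg adjustment over 13086 genes. A gene was called when its adjusted p was under 0.05 and its log2 fold change beyond 1. All 16 monkeys had at least 5 INS-dominant cells, but only 11 had as many SST-dominant and 5 as many PPY-dominant cells. Fold changes below are α-cells minus the mean of the other 3 classes unless a class is named. The SE of each edgeR fold change is its absolute log2 value over the square root of the test's F statistic. Levels are mean CPM over the cells of a class, averaged over monkeys. Called higher in α-cells were 2090 genes (16.0%), and called lower were 262 (2.0%). The median gene stood at a log2 fold change of 0.42, and 600 of the genes called higher had no UMI at all in one of the smaller classes. Among genes detected in more than 25% of cells on the side where they were higher, 497 were higher (3.8%) and 140 lower (1.07%). The excess of higher calls varied with the setting. In the setting of equal cell numbers, α-cells and INS-dominant cells of each monkey were cut to its smallest class of at least 5 cells. There the median was 0.04, with 235 genes higher and 228 lower, and SST- and PPY-dominant cells were all kept. Medians were 0.20 with DESeq2 and 0.18 with no monkey block. With at least 10 cells per class, which left old female 2 alone (22 cells) in the PPY-dominant class, the median was 0.55. The cause was not tested.

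By class, α-cells had 2041 genes higher (15.6%) and 711 lower (5.43%) than INS-dominant cells, 2245 higher (17.2%) and 419 lower (3.2%) than SST-dominant cells, and 441 higher (3.37%) and 168 lower (1.28%) than PPY-dominant cells. The last contrast rests on 5 monkeys and 58 cells, and its count fell to 313 without young male 4, 343 without old male 2 and 367 without young male 1, from 609. Called higher against each of the 3 classes were 133 genes, 61 of them with a UMI in over 25% of α-cells, and 37 genes were lower against each.

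All 6 tested markers were higher in α-cells than the mean of the other classes, with a median log2 fold change of 2.70 against 0.42 over all genes. IRX2, an Iroquois homeobox factor, stood at 289, 509 and 734 CPM in the lowest, median and highest monkey, compared with means of 35.3 CPM in INS-dominant, 25.7 CPM in SST-dominant and 79.9 CPM in PPY-dominant cells. Its log2 fold change was 3.68 ± 0.18 (edgeR adjusted p = 1.07e-22, higher in 16 of 16 monkeys). The IRX2 ranges did not overlap, because the highest value in any other class was 143 CPM. TSPAN12, a tetraspanin, ran from 548 to 1484 CPM with a median of 768 CPM, against 62.1, 110 and 149 CPM in the INS-, SST- and PPY-dominant cells (log2 fold change 3.19 ± 0.17, edgeR adjusted p = 1.36e-21). Its highest value outside α-cells was 340 CPM, so these ranges were also separate.

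GC, which encodes the vitamin D-binding protein of plasma, varied more between monkeys, from 79.4 to 1246 CPM with a median of 408 CPM. It was still 3.29 ± 0.16 higher on the log2 scale (edgeR adjusted p = 1.07e-22, 16 of 16 monkeys), although its range overlapped those of INS-dominant (8.37 to 142 CPM) and SST-dominant cells (6.61 to 162 CPM). ARRDC4, an arrestin-domain protein, had 143, 326 and 452 CPM in the lowest, median and highest monkey, against means of 62.4, 74.2 and 183 CPM in the other classes. Its log2 fold change was 2.06 ± 0.17 overall and 1.14 ± 0.31 against PPY-dominant cells (edgeR adjusted p = 0.0219).

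FEV and TTR separated α-cells less evenly. FEV, an ETS-family factor, stood at 44.0, 133 and 214 CPM in the lowest, median and highest monkey, against 9.94 CPM in INS-dominant, 34.8 CPM in SST-dominant and 85.9 CPM in PPY-dominant cells. It was higher than in INS-dominant cells by 4.01 ± 0.33 (edgeR adjusted p = 9.0e-15), but against PPY-dominant cells its log2 fold change was 0.23 ± 0.47 (edgeR adjusted p = 0.836). TTR, the plasma carrier of thyroxine and retinol-binding protein, was abundant in every class. It reached 69972 to 108084 CPM in α-cells, above the 24607 to 59377 CPM of INS-dominant cells in the same monkeys, and its log2 fold change was 1.07 ± 0.05. Against PPY-dominant cells TTR was higher by 0.62 ± 0.09 (edgeR adjusted p = 8.46e-06), under the fold used for a call.

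**Figure D2:**
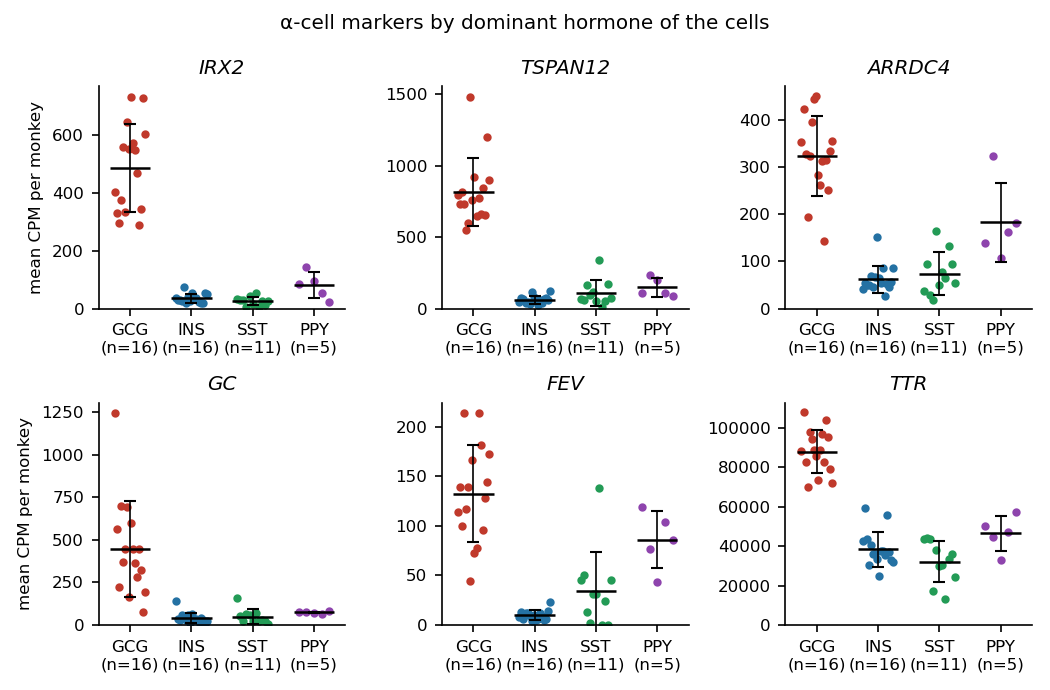
Mean CPM per monkey of the 6 α-cell markers other than GCG, in the 4 classes of cells named by their dominant hormone (each point a monkey with at least 5 such cells, n = 16, 16, 11 and 5; bars show mean ± SD; each axis starts at 0). IRX2 and TSPAN12 in α-cells lay above every other value, while FEV in PPY-dominant cells (43.6 to 119 CPM) overlapped the range of α-cells (44.0 to 214 CPM).

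All 6 transcription factors listed for α-cells were called higher against the mean of the other classes (median log2 fold change 3.15, or 2.44 with genes that lack a UMI in a class set at the bound that a floor of 3 counts over that class allows). Against single classes, 5 of the 6 were called higher than in INS-dominant and 6 than in SST-dominant cells, but 1 than in PPY-dominant cells (median 0.89). IRX1, the Iroquois partner of IRX2, stood at 29.5 CPM ± 14.1 (SD, n = 16) and was higher by 2.63 ± 0.37 (edgeR adjusted p = 2.91e-07).

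None of the 13 tested factors known from endocrine cells in general was called against the mean of the other classes, at a median log2 fold change of 0.56. Over all tested genes, 16.0% were called higher and 2.0% lower. Single classes gave calls. Relative to INS-dominant cells FOXA1, HNF4A, ISL1 and ST18 were higher and GLIS3 was lower (median 0.99), relative to SST-dominant cells ISL1 was lower, and relative to PPY-dominant cells RFX6 was higher. Against the mean, PAX6, NEUROD1, RFX6 and ST18 passed the adjusted p with a fold under the minimum. PAX6, a regulator of all islet hormones, had 471 CPM in α-cells against 326, 323 and 421 CPM in the other classes (log2 fold change 0.41 ± 0.11). RFX6, needed for endocrine differentiation, was higher by 0.92 ± 0.15 and was close to its SST-dominant level (276 and 326 CPM). Of 6 tested β-cell factors 0 were higher and 4 lower (median -1.69, or -2.31 with PAX4 at its bound). MAFA, which drives insulin transcription, was at 5.21 CPM in α-cells and 116 CPM in INS-dominant cells. NKX6-1 was lower than in INS-dominant cells by 1.95 ± 0.22 on the log2 scale, but higher than in SST-dominant cells by 2.16 ± 0.26 and than in PPY-dominant cells by 1.5 ± 0.42.

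Markers of the other endocrine types were mostly lower in α-cells than in the class they mark. Of 14 tested β-cell markers 0 were higher and 10 lower against the mean (median log2 fold change -2.37, or -2.40 with G6PC2 at its bound), and all 14 were lower than in INS-dominant cells. IAPP, the amyloid polypeptide released with insulin, was at 9.05 to 131 CPM in α-cells and at 905 to 4776 CPM in INS-dominant cells, and SLC2A2, the β-cell glucose transporter, at 1.22 to 20.4 against 365 to 1150 CPM. Neither range overlapped. The δ-cell list had 5 of 8 genes lower and 1 higher, BCHE, and 7 were lower than in SST-dominant cells (list median against the mean -2.12, or -2.28 with GHSR at its bound). HHEX, the δ-cell homeobox factor, was at 1.68 CPM against 405 CPM in SST-dominant cells, and RBP4, a retinol carrier, at 21.8 against 7935 CPM. Of 7 pancreatic polypeptide cell markers (median -1.35), 5 were lower and AQP3, a water and glycerol channel, was higher. These lists did not set α-cells apart from every class. Against PPY-dominant cells, 1 β-cell marker was higher and 1 lower (median -0.15), and 0 δ-cell genes were higher and 2 lower (-0.08). Against INS-dominant cells, 3 δ-cell genes were higher and 1 lower (1.14), and 2 pancreatic polypeptide cell markers were higher and 1 lower (0.21). Against SST-dominant cells, 1 β-cell marker was higher and 8 lower, and the pancreatic polypeptide list had 0 higher and 4 lower. Among 15 tested α-cell markers from the wider field, 14 were higher (median 2.42, or 2.35 with genes that lack a UMI in a class at their bounds), and 5 were higher than in PPY-dominant cells alone (median 1.32). The exception was SMOC1, at 38.9 CPM against 45 CPM in INS-dominant cells (log2 fold change against the mean 0.42 ± 0.32, edgeR adjusted p = 0.357). CRYBA2, a crystallin, was the firmest of these at 735 CPM ± 364 (SD, n = 16), with a log2 fold change of 3.42 ± 0.14 (edgeR adjusted p = 5.06e-26).

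By the size of their change, 15 higher and 10 lower genes were named among genes detected in more than 25% of cells on their higher side and moving the same way in every monkey. Of these 25, IRX2, FAP and PCSK1 are also list genes. IGSF21, a synaptic adhesion protein of the immunoglobulin superfamily, stood at 16.9, 48.4 and 137 CPM in the lowest, median and highest monkey against 0 to 3.58 CPM in INS-dominant cells (log2 fold change 4.51 ± 0.39). PAPPA2, a protease that cleaves insulin-like growth factor binding proteins, stood at 39.2, 216 and 883 CPM against 3.48 to 31.1 CPM (4.28 ± 0.23). IMPG1, a proteoglycan known from the retinal matrix, followed at 4.06 ± 0.38 and the collagen COL22A1 at 3.93 ± 0.47. These 4 genes were higher in α-cells in all 16 monkeys, and the ranges of IGSF21 and PAPPA2 in α-cells and INS-dominant cells did not overlap. NRXN3, a presynaptic neurexin, was higher by 3.85 ± 0.47 and EFNB2, an ephrin ligand, by 3.53 ± 0.39. NRXN3 was not called against PPY-dominant cells (2.02 ± 0.81, edgeR adjusted p = 0.126).

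ADORA2A, a receptor for adenosine, had 34.2, 56.7 and 87.4 CPM in the lowest, median and highest monkey, and INS-dominant cells 0.952 to 19.8 CPM (3.85 ± 0.35). MAOB, which oxidizes monoamines, was the steadiest between monkeys, at 70.4 to 124 CPM against 3.68 to 14.3 CPM in INS-dominant cells (3.59 ± 0.28). FAP, a serine protease related to DPP4, ran from 81.0 to 771 CPM (3.57 ± 0.19), above the 2.64 to 54.0 CPM of INS-dominant cells. The other genes of this set were CYTL1, a secreted cytokine-like protein, SERPIND1, the thrombin inhibitor heparin cofactor II, DOCK8, an activator of the GTPase CDC42, UPB1, the last enzyme of uracil breakdown, and BHMT2, a homocysteine methyltransferase, with log2 fold changes from 3.90 to 3.70. BHMT2 did not pass against PPY-dominant cells (2.46 ± 0.82, edgeR adjusted p = 0.0674). IRX2 completed the 15.

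The 10 lower genes were low in the α-cells of most monkeys, although UNC5B reached 50.1 CPM and CABP7 38.0 CPM in old female 1 and TH 33.3 CPM in old female 4. PCSK1 stood at 1.87 to 16.9 CPM in α-cells against 87.7 to 575 CPM in INS-dominant, 80.8 to 624 CPM in SST-dominant and 10.1 to 121 CPM in PPY-dominant cells, and its log2 fold change was -4.32 ± 0.26. C1QL1, a secreted C1q-like protein, had the largest negative value of the 10 (-4.95 ± 0.41), with 1.8 CPM in α-cells and 155 CPM in SST-dominant cells. CABP7, a calcium-binding protein, was at 6.06 CPM against 126 CPM in INS-dominant cells (-4.39 ± 0.35). UNC5B, a netrin receptor, was lower than in each of the other classes, at 147, 167 and 143 CPM compared with 10.7 CPM in α-cells (-4.04 ± 0.31). TH, the first enzyme of catecholamine synthesis, differed most from INS-dominant cells (4.53 against 275 CPM) and was not called against PPY-dominant cells (-1.77 ± 0.63, edgeR adjusted p = 0.0869). INSC, an adaptor of spindle orientation, and CSRP2, a LIM-domain protein, also missed a call against PPY-dominant cells, with -0.74 ± 1.03 (edgeR adjusted p = 0.731) and -0.74 ± 0.49 (edgeR adjusted p = 0.389). TSPAN8, ERICH5 and TMEM255B had log2 fold changes of -4.27, -4.16 and -3.83. Each of the 10 was lower in 16 of 16 monkeys, as the naming rule required.

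**Figure D3:**
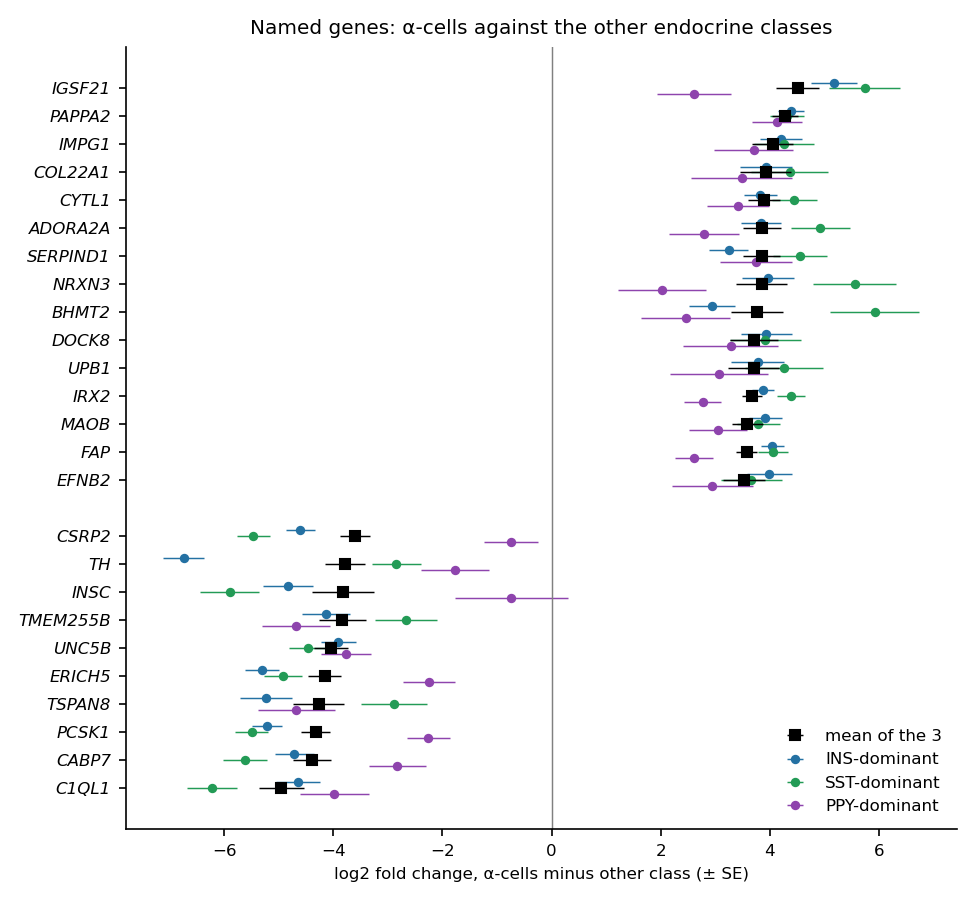
Log2 fold changes (± SE) of the 25 named genes in α-cells against the mean of the other 3 classes and against each class. IGSF21 stood highest at 4.51 and C1QL1 lowest at -4.95, and the values against PPY-dominant cells lay nearest 0 for NRXN3, TH, INSC and CSRP2 among others.

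Genes of hormone processing and storage split between the convertases. PCSK2 was at 1945 CPM ± 447 (SD, n = 16) in α-cells against 352, 713 and 635 CPM in INS-, SST- and PPY-dominant cells. PCSK2 was called higher (2.05 ± 0.11, edgeR adjusted p = 1.47e-21), PCSK1 was lower as above, and the other 5 of 7 tested processing genes were not called. Of 9 granule genes, 2 were higher and 1 lower. For this list and those that follow, the shares over all tested genes were 16.0% higher and 2.0% lower against the mean. Against INS-dominant cells they were 15.6% and 5.43%. CHGA, the granule protein chromogranin A, was higher by 2.17 ± 0.16 but varied from 491 to 4271 CPM between monkeys. SLC30A8, the zinc transporter of insulin granules, was at 410 CPM in α-cells and 513 CPM in INS-dominant cells (log2 difference -0.24 ± 0.15, edgeR adjusted p = 0.27), so that its call of 2.06 ± 0.15 against the mean came from the SST- and PPY-dominant cells (43.1 and 69.2 CPM). CHGB was lower by 1.06 ± 0.16 on the log2 scale. In the exocytosis list 1 of 17 genes was higher (SYT11) and 1 lower (SYT13, 103 CPM against 409, 665 and 270 CPM). Among 17 channel genes 1 was higher (KCNK16) and 1 lower (SCN2A). Against INS-dominant cells alone, 7 channel genes were higher and 2 lower, ABCC8 and KCNJ11, the subunits of the ATP-sensitive potassium channel. ABCC8 stood at 581 CPM in α-cells and 1278 CPM in INS-dominant cells (-1.17 ± 0.16, edgeR adjusted p = 4.0e-08).

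Of 12 tested genes of amino acid handling, 7 were called higher and 1 lower, at a median log2 fold change of 1.78. By class, 4 were higher and 1 lower than in INS-dominant cells (median 0.88). Relative to SST-dominant cells 7 were higher and 2 lower (1.93), and relative to PPY-dominant cells 3 were higher and 2 lower (1.56). SLC7A2, a transporter of arginine and lysine, was at 105 CPM against 32.9, 5.58 and 57.6 CPM (2.47 ± 0.30). SLC7A8, a carrier of neutral amino acids, was at 1378 CPM against 840, 255 and 375 CPM (1.78 ± 0.12), and relative to INS-dominant cells its difference of 0.82 ± 0.13 was under the fold used. SLC7A5, its partner SLC3A2, SLC38A4 and SLC38A5 were also called higher. SLC38A5, a glutamine carrier linked to α-cell growth in mice, had a UMI in only 6.07% of α-cells (4.19 CPM ± 4.27). SLC38A2 was the gene called lower (-1.89 ± 0.44).

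Of 7 glucose genes, LDHB and PC were called higher and SLC2A2 and PFKFB2 lower. LDHB, a lactate dehydrogenase subunit, stood at 80.0 CPM against 9.58 CPM in INS-dominant cells (3.38 ± 0.38). PC, pyruvate carboxylase, had no UMI in the 58 PPY-dominant cells, which allows a share of cells with a UMI of up to 5.17%, and its difference from INS-dominant cells was 0.63 ± 0.51 (edgeR adjusted p = 0.41). Among the plasma carriers GC and TTR were higher and RBP4 lower. Of 17 receptors 5 were higher and 5 lower. GRIA3, a glutamate receptor subunit, was at 158 to 280 CPM in α-cells against 16.2 to 178 CPM in INS-dominant cells (2.01 ± 0.22), while its relative GRIA4 was lower (-2.57 ± 0.59). EPHA4, an ephrin receptor, was higher by 2.37 ± 0.29. GCGR, the glucagon receptor, was at 1.28 CPM in α-cells against 31.1 CPM in INS-dominant and 50.8 CPM in SST-dominant cells (-3.47 ± 0.51). CASR, the calcium-sensing receptor, was at 16.7 against 174 and 160 CPM, and close to PPY-dominant cells (12.3 CPM). LEPR and FFAR4 were also called lower, with 434 and 41.8 CPM in SST-dominant cells against 1.34 and 0.14 CPM in α-cells. The calls of GPR119 and INSR rest on classes without a UMI: GPR119 had none in SST-dominant and INSR none in PPY-dominant cells. The list medians were small: 0.04 for processing, 0.77 for granule, 0.17 for exocytosis, 0.25 for channel, 0.05 for glucose, 0.62 for plasma carrier and 0.60 for receptor genes, where 0.42 was the median of all genes. With genes that lack a UMI in a class at their bounds, those of channels and receptors were 0.14 and 0.18.

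**Figure D4:**
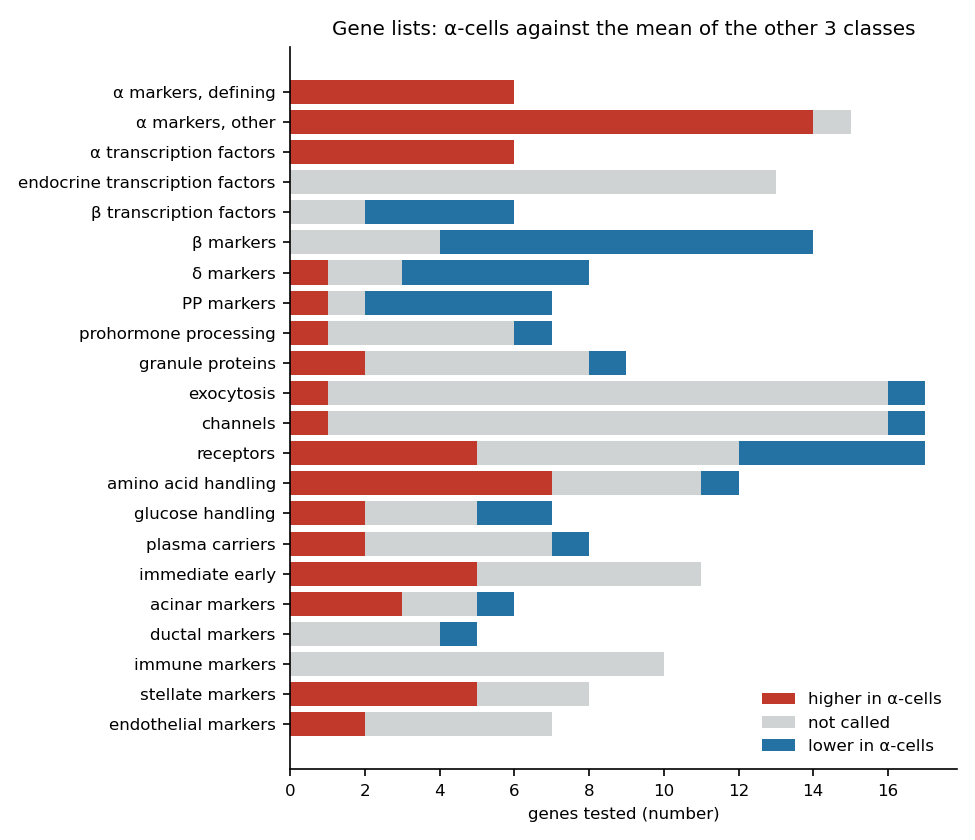
Number of tested genes in each list that were called higher, not called or called lower in α-cells against the mean of the other 3 classes. All 6 α-cell markers and all 6 α-cell factors were higher, 10 of 14 β-cell markers were lower, and 0 of 13 factors known from endocrine cells in general were called in this contrast.

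Immediate early genes moved with the class comparison. Of 11 tested, 5 were called higher (NR4A1, NR4A2, DUSP1, ZFP36 and KLF6; list median 1.03), and 10 were higher than in INS-dominant cells. Their summed level ran from 1494 to 5911 CPM in α-cells, 345 to 1470 CPM in INS-dominant, 827 to 3805 CPM in SST-dominant and 2623 to 6007 CPM in PPY-dominant cells. NR4A1, an orphan nuclear receptor, stood at 785 CPM against 149, 264 and 717 CPM. Relative to PPY-dominant cells 0 were higher and FOSB was lower (-2.88 ± 0.43). Their part in the other differences was not tested.

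Summed markers of non-endocrine cells differed between classes and monkeys. In α-cells the sums per monkey were at most 1278 CPM for the acinar list, 98.2 CPM for ductal, 259 CPM for immune, 230 CPM for stellate and 147 CPM for endothelial cells. In INS-dominant cells the highest sums were 104, 85.5, 68.3, 206 and 86.4 CPM in that order. In SST-dominant cells they were 1313, 361, 210, 124 and 84.8 CPM, and in PPY-dominant cells 320, 110, 78.0, 28.2 and 40.4 CPM. The median monkey had an acinar sum of 8.19 CPM in α-cells, 2.74 CPM in INS-dominant, 377 CPM in SST-dominant and 3.46 CPM in PPY-dominant cells. CPB1, a pancreatic carboxypeptidase, averaged 20.4 CPM in α-cells and 479 CPM in SST-dominant cells. Of their tested genes, 5 of 8 stellate, 3 of 6 acinar and 2 of 7 endothelial genes were called higher and CPB1 and SLC4A4 lower. Over all tested genes, 16.0% were called higher and 2.0% lower. The list medians were 2.42 for stellate, 3.07 for acinar, 1.00 for endothelial, 0.11 for ductal and 1.21 for immune genes, and with genes lacking a UMI in a class at their bounds the first 3 were 1.94, 1.24 and 0.85. None of 10 immune genes was called. In 34 α-cells one of these sums was over 5000 CPM or GHRL, the ghrelin gene of ε-cells, was over 20000 CPM. GHRL passed this level in 3 of them, and 2 held more GHRL than GCG. The rule, which did not use GHRL, still counted them as α-cells. Without these 34 cells, which came from 11 monkeys, 2179 genes were called higher and 264 lower, and every named gene kept its call. The part of these transcripts in the other differences from SST-dominant cells was not tested.

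The spread among α-cells of one library was described by the variance over the mean, which is higher for abundant genes at the same relative spread, and GCG was used to choose the cells. With cells thinned to 10000 UMIs, the median over libraries of the variance over the mean was 149 for GCG and 130 for TTR, against 2.17 for the median of 5381 genes. These were also the most abundant of the named genes, at 93372 and 87977 CPM. PTGS2, a prostaglandin synthase, followed at 14.5, with 505 CPM in the median cell and over 4370 CPM in the top 5% of cells. GNAS, the stimulatory G-protein subunit, stood at 14.3 and INS at 14.2. MT2, a metallothionein, RARRES2, the precursor of chemerin, RAPGEFL1, CRYBA2 and GHRL completed the first 10, with values from 10.8 to 8.01. These values are descriptions over cells, which are not replicates.

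Between monkeys, the levels of most genes in α-cells were close, with a median SD of 0.28 on the log2 scale. The 10 most variable genes had SDs from 2.74 to 1.59 and several split the monkeys into separate levels. GHRL was over 100 CPM in 4 monkeys and under 10 CPM in the other 12, and it had a UMI in 14.0% of α-cells. It was over 20000 CPM in 1 α-cell each of old male 4, young female 2 and young male 3, and the highest cell held 343198 CPM. A mean over cells can rest on few such cells, and their part was not tested. S100A10, a calcium-binding family member, was under 10 CPM in 3 monkeys and over 100 CPM in 10. EGFR, the epidermal growth factor receptor, was under 10 CPM in 7 and over 100 CPM in 7. All 7 low monkeys carry individual numbers of 8 or lower in the labels and had 0.187 to 1.56 CPM, while the 9 monkeys numbered 9 or higher had 14.1 to 267 CPM. The monkeys numbered 8 or lower were 6 young and 1 old, so that number and age overlap, and what the numbers stand for was not tested. COX2, which the files list apart from PTGS2, was at 26.3 CPM in young male 1 and 474 CPM in the next monkey, with a median of 10255 CPM. FDCSP, a secreted peptide, stood at 1630 CPM in young male 3 and under 10 CPM in the other 15 monkeys. CD74, the invariant chain of antigen presentation, was also highest in young male 3 at 1578 CPM. Over all α-cells FDCSP had a UMI in 3.43% and CD74 in 29.0%, and their highest cells held 110177 and 48219 CPM. The part of such cells in these 2 means was not tested. RETNLB, TSPO, NPY and PPY made up the rest. Of these, NPY was highest in old male 4 at 545 CPM. Several of these levels ran alike in INS-dominant cells of the same monkeys. There EGFR was at most 1.25 CPM in the same 7 monkeys and 14.3 to 250 CPM in the other 9. COX2 was at 29.5 CPM in young male 1 and 603 CPM in old male 1, GHRL was at 95.8 to 566 CPM in the same 4 monkeys, and FDCSP was at 104 CPM in young male 3 and 0 in the others.

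**Figure D5:**
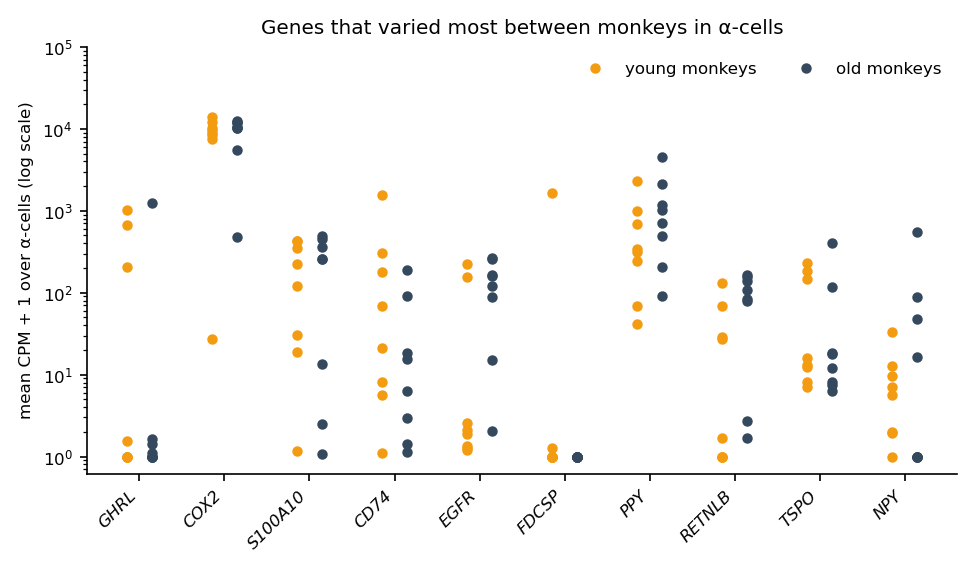
Mean CPM + 1 over the α-cells of each monkey (log scale) for the 10 genes with the largest SD between monkeys, with young and old monkeys side by side (8 points each). EGFR was under 10 CPM in 6 young and 1 old monkey and over 100 CPM in 2 young and 5 old, S100A10 was under 10 CPM in 1 young and 2 old and over 100 CPM in 5 young and 5 old, and FDCSP was high in young male 3 alone.

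Age was compared within α-cells between 8 old and 8 young monkeys, with sex as a covariate. Of 12795 genes tested, 0 were called (0.0%) by edgeR's quasi-likelihood test at an adjusted p under 0.05. The lowest adjusted p was 0.341. At an unadjusted p under 0.05 there were 858 genes, 457 higher and 401 lower in old monkeys, and DESeq2 called 11. Because individual number and age overlap, number (8 or lower against 9 or higher) was added as a covariate, a choice made after seeing the data. It left 0 calls and 346 genes at an unadjusted p under 0.05, and changed the old-minus-young log2 difference of EGFR from 1.64 ± 1.22 (edgeR adjusted p = 0.844) to -0.10 ± 0.66. All 4 tested acinar markers had an unadjusted edgeR p under 0.05 for age and 0 were called, and their median log2 difference was -3.42. Their summed level had medians of 10.98 CPM in young and 4.19 CPM in old monkeys, with highest values of 1278 and 73.4 CPM. With number as a covariate 0 of the 4 had such a p (median -1.52), and without the 34 cells 3 did (median -2.66). Their part in the age comparison was not tested. None of the 6 markers passed: the old-minus-young log2 difference lay between -0.67 ± 0.37 for GC (551 CPM in young and 342 CPM in old monkeys, unadjusted edgeR p = 0.090) and 0.25 ± 0.17 for IRX2 (437 and 537 CPM). The intervals of these differences are wide, so that the p-values do not show equal levels. The difference between α-cells and INS-dominant cells was compared between the age groups by an interaction term. Of 13148 genes 0 were called (0.0%) by edgeR, with 651 at an unadjusted p under 0.05 and a lowest adjusted p of 0.0805, and DESeq2 called 6.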

How the data were processed

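Single-cell UMI counts were analysed for 16 monkeys in 64 libraries. Reads were trimmed by the authors and aligned to Macaca_fascicularis_5.0 with TopHat 2.0.12; they counted uniquely mapped reads per gene with htseq-count and counted each UMI once, and they deposited raw UMI counts per gene and cell. Counts of 21041 genes were used as deposited. Spike-in rows (5.41% of retained UMIs) were left out of CPM and of library sizes. The study's filter on the mapping rate was not repeated, no doublet caller was run, and coordinates are not given because no genome of this build was used here.

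The members and gene lists were chosen with earlier results of these data known, and the list genes not found under their symbol were not analysed here. Values of some list genes are not reported here. UMI counts were summed per monkey and class with at least 5 cells, the 4 hormone genes were removed because the rule used them, and the sums were fitted with edgeR 4.0.16 in R 4.3.3 (TMM, filterByExpr, quasi-likelihood test). Monkey was a block in the class fit, because all classes came from the same animals, and sex was a covariate in the age fit. Levels, permutation tests and thinned counts were computed in Python 3.11.15 with scipy 1.17.1. The fits were tested on simulated data. Named genes were the 15 largest positive and 10 largest negative log2 fold changes among called genes with a symbol, detection in more than 25% of cells on their higher side and 1 direction in every monkey (members against the mean of the other classes present), and any gene of the lists. For variation they were the 10 highest genes of each kind with at least 20 CPM. Fold changes of genes with no UMI in a class depend on the prior count. Intervals and limits from counts cover counting error only, and p-values measure the spread between these monkeys.

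Alternatives were DESeq2 1.42.0, no filter on low counts, no monkey block, hormone genes kept, a hormone ratio of 5 and cells thinned to 10000 UMIs. Further ones were at least 10 cells per class, no cells above the 95th percentile of UMIs, a log2 fold change over 2, and each monkey left out. The setting called equal cell numbers cut the GCG- and INS-dominant cells of each monkey to its smallest class of at least 5 cells. SST- and PPY-dominant cells were all kept there. Leaving out cells high in non-endocrine markers or GHRL, and individual number as a covariate in the age fit, were added after seeing the data.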

Additional observations from a re-analysis of the deposited data

Results flagged for a closer look

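In 37 quantities tested in each age group of 8 monkeys (74 groups), 15 times 1 monkey stood apart from the other 7 by Dixon's criterion. Chance meets it in about 1 of 20 groups only where values are normal and independent. These levels were not put on a log scale, and several flags share a monkey. All flags but the genes per cell of young male 3 were highest values. The number of flags therefore cannot be set against chance. Young male 3 was the source of 4: its median of 2779 genes per α-cell lay below the next value of 4076, and its levels of TSPAN12 (1484 CPM, next 819), FAP (771 CPM, next 365) and EFNB2 (49.2 CPM, next 26.9) were above those of the other young monkeys. The highest PPY level was 2293 CPM in young male 1 (next 1000 CPM) among young and 4580 CPM in old female 2 (next 2117 CPM) among old monkeys. Genes higher in α-cells stood apart in 3 further monkeys. IGSF21 was at 137 CPM in young male 4 (next 62.4), PAPPA2 at 883 CPM in young male 2 (next 447) and IMPG1 at 270 CPM in old female 1 (next 94.6).

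Genes lower in α-cells stood apart upwards. CABP7 was at 9.75 CPM in young male 2 (next 5.32) and 38.0 CPM in old female 1 (next 8.82). UNC5B was at 50.1 CPM in old female 1 (next 14.3), TSPAN8 at 5.76 CPM in young female 4 (next 2.55), and TH at 10.9 CPM in young male 1 (next 3.31) and 33.3 CPM in old female 4 (next 5.25). A lower level in α-cells than in the mean of the other classes present was required in every monkey for naming these genes, so it held here too. Old female 4 had 3 SST-dominant and 0 PPY-dominant cells, so there only INS-dominant cells were compared.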

How the results depend on the processing

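Of the 30 named genes and markers under 25 alternatives, 749 of 750 values kept direction and call and 0 reversed. TTR fell under the fold used with DESeq2 (0.93). The genes that were not given markers were named for large, called changes of 1 direction in the main fit, and 16 alternatives each left out 1 monkey. This stability was therefore partly set by the choice of genes. Counts moved more. Against 2090 higher genes there were 1366 with DESeq2, 1271 with no replicate block, 946 with thinned cells, 235 with equal cell numbers, 857 with at least 10 cells per class and 1236 at a log2 fold change over 2, and 1870 to 2166 with each monkey left out. Lower genes (262) became 458 with DESeq2 and 153 at the larger fold, and 229 to 276 with a monkey left out. The share of higher among called genes was 88.9%, and 74.9% with DESeq2, 76.8% without the block and 50.8% with equal cell numbers. Of the 2090 higher genes, 220 kept their call with equal cell numbers and 1325 with DESeq2; of the 262 lower genes, 160 and 259 did. Against INS-dominant cells, 2752 calls became 1666 at a hormone ratio of 5, 1607 thinned, 886 with equal numbers and 1523 at the larger fold (2509 to 2801 with a monkey left out). Against SST-dominant cells, 2664 became 589, 1624, 579 and, with at least 10 cells, 1734 (2384 to 2749). Against PPY-dominant cells, 609 became 1049 with DESeq2, 1026 with no replicate block and 143 with equal numbers (313 to 701). At least 10 cells per class left old female 2 alone (22 cells) in the PPY-dominant class, so no count is given there. The values against the mean in that setting rest on this monkey for that class. A ratio of 5 left no PPY-dominant class, so that it gave no value there or against the mean. Apart from the smaller numbers of cells, UMIs or genes that some settings leave by construction, the cause was not tested.

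For age, DESeq2 called 11 genes where edgeR called 0, and for the interaction 6 where edgeR called 0; leaving out a monkey gave 0 to 1 for the interaction (without young female 1, ST6GAL1, named after its values were seen, log2 -2.13, edgeR adjusted p = 0.0220). The log2 ratio of UMIs to INS-dominant cells was -0.166 (exact permutation p = 0.0210) without young female 2 and -0.166 to -0.0829 over monkeys left out, and that of genes was -0.0718 (exact permutation p = 0.0415) with means over cells. The share difference ran from -7.02 to -0.50 points with a monkey left out. Same-numbered young and old monkeys share only a number: their 8 correlations over 5972 genes ran from -0.117 to 0.210, 3 of them over 0.1, and a replicate block on these numbers gave 0 age calls (759 genes at an unadjusted p under 0.05). Individual number as a covariate, chosen after seeing the data, also gave 0 (346 genes). Depth limits the SST- and PPY-dominant classes most, where 101 and 58 cells leave many genes without a UMI.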

Other observations

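The 24 retained cells in which no hormone reached the minimum were not low in UMIs. Of them, 9 came from young male 3 and 8 from old female 1. The 24 cells held a median of 158650 UMIs against 64894 in α-cells, and GCG stood at 12897 CPM in the median cell. All 6 non-hormone α-cell markers had a UMI in 37.5% of them, and in 8.33% after thinning to 10000 UMIs, against 25.7% of α-cells. Of the 238 cells whose leading hormone was under 2 times the next, 43.3% had all 6 markers, and 7.11% after thinning. What these cells are was not tested.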
